A study of Mus musculus with 2 samples.

Results

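The mir-128, mir-129, mir-138 and mir-153 genes were examined in the microRNA profile of the mouse hindbrain at embryonic day 13.5. They are 7 hairpin genes of 4 families: Mir128-1, Mir128-2, Mir129-1, Mir129-2, Mir138-1, Mir138-2 and Mir153. They were picked by gene symbol, through the Ensembl identifiers of the deposited rows, out of 1973 microRNA gene rows in all. The tissue was hindbrain dissected from healthy B6NCrl embryos, males and females pooled, with no treatment or engineered allele named in the labels. RNA shorter than 30 nt was sequenced in 2 libraries, replicate 1 and replicate 2, which form 1 group. The labels call them biological replicates, with separate biosample identifiers but 1 donor identifier, and do not say whether they came from different litters. Differences between them may therefore be technical in part. With 1 tissue at 1 stage there is no comparison between conditions.

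A microRNA gene is transcribed as a long precursor that is cut to a hairpin and then to mature products of about the length of a small RNA read. Either arm of the hairpin can give a product, called 5p or 3p. A mature product pairs with target messages mainly through its seed, bases 2 to 8 from its 5′ end. miR-128 is enriched in brain and known for its part in neuronal differentiation and excitability. miR-129 is known from the control of neuronal excitability, miR-138 from the size of dendritic spines, and miR-153 from its targets in synaptic vesicle release and alpha-synuclein. In bulk tissue, fewer cells of a type and less RNA per cell cannot be told apart.

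The mature products are shown first, because the copies of a family overlap in them and the deposited counts leave out reads that mapped to several places. All 7 genes had entries in the RefSeq table for GRCm38.p6, with 10 different mature sequences. The seed is in capitals.
miR-128-1-5p: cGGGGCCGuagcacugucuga
miR-128-2-5p: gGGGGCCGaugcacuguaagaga
miR-128-3p, from Mir128-1 and Mir128-2: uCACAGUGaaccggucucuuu
miR-129-5p, from Mir129-1 and Mir129-2: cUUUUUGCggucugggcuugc
miR-129-2-3p: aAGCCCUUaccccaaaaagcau
miR-138-5p, from Mir138-1 and Mir138-2: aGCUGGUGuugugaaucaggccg
miR-138-1-3p: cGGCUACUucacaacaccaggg
miR-138-2-3p: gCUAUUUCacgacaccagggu
miR-153-5p: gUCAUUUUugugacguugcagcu
miR-153-3p: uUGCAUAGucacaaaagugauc

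Of these sequences, 3 occurred in both hairpins of a family and 7 in a single hairpin. miR-128-1-5p and miR-128-2-5p have the same seed and differ at 5 of 21 positions counted from the 5′ end of miR-128-1-5p, C1G, U9A, A10U, C18A and U19A. miR-138-1-3p and miR-138-2-3p start 2 nt apart, so their seeds differ, and over 20 nt in common they differ at 2 positions counted from the 5′ end of miR-138-1-3p, C7U and A13G. Opposite miR-129-2-3p the hairpin of Mir129-1 holds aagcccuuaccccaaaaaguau, with 1 difference of 22 counted from the 5′ end of miR-129-2-3p, C20U. The RefSeq table lists no 3p product for Mir129-1, so this stretch is not among the mature sequences above. No gene outside these families had a RefSeq mature product with any of these seeds. The families do not share a seed with each other.

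The hairpins of the families with 2 copies show where a read can be assigned to 1 copy. Lower case marks stretches of at least 20 nt that occur in the same sense in another RefSeq mouse hairpin, in each case the sister copy, and capitals mark all other bases.
Mir128-1: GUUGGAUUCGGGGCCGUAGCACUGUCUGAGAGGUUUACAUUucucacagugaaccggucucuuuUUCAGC
Mir128-2: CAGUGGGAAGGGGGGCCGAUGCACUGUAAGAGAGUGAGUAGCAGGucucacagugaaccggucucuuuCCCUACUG
Mir129-1: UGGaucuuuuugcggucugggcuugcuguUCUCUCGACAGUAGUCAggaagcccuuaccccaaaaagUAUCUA
Mir129-2: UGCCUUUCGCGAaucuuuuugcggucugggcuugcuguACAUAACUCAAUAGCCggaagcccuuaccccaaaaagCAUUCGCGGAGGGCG
Mir138-1: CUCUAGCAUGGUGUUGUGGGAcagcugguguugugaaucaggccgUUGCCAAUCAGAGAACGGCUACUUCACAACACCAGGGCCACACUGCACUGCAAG
Mir138-2: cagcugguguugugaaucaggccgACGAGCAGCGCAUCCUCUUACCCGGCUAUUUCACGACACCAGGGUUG

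The mir-128 copies share 1 stretch of 23 nt around miR-128-3p, and the mir-138 copies 1 of 24 nt around miR-138-5p. The mir-129 copies share stretches of 26 nt and 21 nt, which reach into both arms and cover 64.4% of Mir129-1 and 52.2% of Mir129-2. Mir153 shares no stretch of 20 nt with any other hairpin, so its hairpin is not shown. An exact read that starts at the 5′ end of miR-128-3p reaches a base of its own copy at its nucleotide 22. For miR-138-5p this is nucleotide 24, for miR-129-5p nucleotide 25 and for miR-129-2-3p nucleotide 20. Read lengths and arms are not in the count tables, so which products gave the counts of a copy was not tested.

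**Figure D1:**
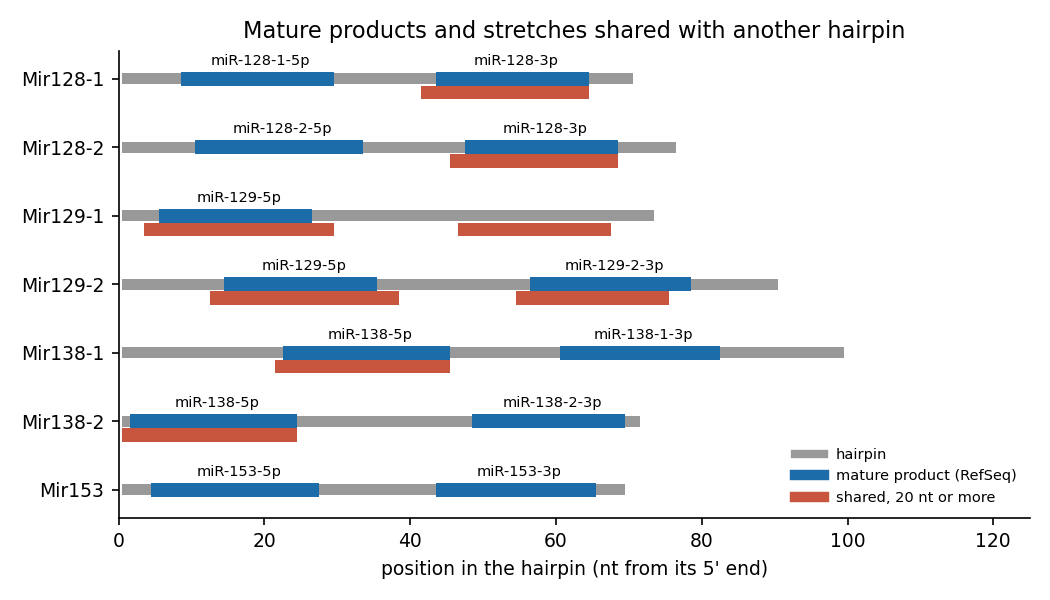
Map of the 7 hairpins, with position in nt from the hairpin's 5′ end on the horizontal axis, RefSeq mature products in blue and stretches of 20 nt or more shared with another hairpin in red. The shared stretches cover 1 product in each mir-128 and mir-138 hairpin, reach into both arms of the mir-129 hairpins and are absent from Mir153.

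The genes lie apart from each other on GRCm38, 4 in introns and 3 in exons of longer transcripts on the same strand (GENCODE M21). Mir128-1 (ENSMUSG00000065520.1) is at chr1:128202361-128202430 in an intron of R3hdm1, and Mir128-2 (ENSMUSG00000065441.1) at chr9:112118636-112118711 in an intron of Arpp21, a neuronal gene for a phosphoprotein regulated by cyclic AMP. Mir129-1 (ENSMUSG00000065469.1) is at chr6:29022619-29022691 in an exon of the long non-coding RNA gene Gm3294. Mir129-2 (ENSMUSG00000065511.1) is at chr2:94241364-94241453 in an intron of the non-coding host Mir670hg. Mir138-1 (ENSMUSG00000065414.1) is at chr9:122682876-122682974 in an exon of the transcribed pseudogene Gm47135, and Mir138-2 (ENSMUSG00000065512.2) at chr8:94324311-94324381 in an exon of the long non-coding RNA gene C78859. Mir153 (ENSMUSG00000065538.1) is at chr12:117250817-117250885 in an intron of Ptprn2, which encodes a membrane protein of dense-core vesicles. The nearest other microRNA gene with a row was Mir670, 19.8 kb from Mir129-2. For Mir129-1 it was 127.9 kb away, and for the other genes farther. Of the identifiers, 3 (Mir128-1, Mir128-2 and Mir138-2) have a newer version in GENCODE M21 than in the tables, so the limits used for their counts may differ from those printed.

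All 7 genes had at least 10 counts in both libraries, as did 356 of the 1973 rows, and the lowest member count was 203. The gene rows held 3006571 counts in replicate 1 and 4508244 in replicate 2. Levels are given as counts per 1000000 counts of all gene rows (CPM). Reads placed at several loci, 33.9% and 34.5% of all reads of replicates 1 and 2, are in no gene row. Summed over the 7 genes the level was 4379 CPM in replicate 1 against 4149 CPM in replicate 2, a mean of 4264 ± 162 CPM (SD, n = 2) or 0.426% of the counts. The exact Poisson 95% intervals of these sums, which cover counting error only, were 4305 to 4455 CPM and 4090 to 4209 CPM and did not overlap. No member had a count on the opposite strand in either library, which allows up to 0.998 CPM in replicate 1 and 0.665 CPM in replicate 2 (3 counts). This includes Mir129-2, whose opposite strand carries the hairpin gene Mir129b, a gene not analysed here.

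Mir153 was the highest of the 7 in both libraries. It had 5131 counts or 1707 CPM in replicate 1 (95% interval 1660 to 1754) and 6543 counts or 1451 CPM in replicate 2 (1416 to 1487), a mean of 1579 ± 180 CPM (SD, n = 2). The libraries' intervals do not overlap, and the gene held 39.0% and 35.0% of the members' counts. It ranked 80 among the 356 detected genes, between Mir125b-1 at 1599 ± 92.9 CPM and Mir96 at 1547 ± 53.2 CPM. Its level was 2.02 and 1.65 times that of Mir138-1, the next member, in replicates 1 and 2. Mir153 is the member with no stretch in common with another hairpin, and the part of the reads left out as multimapping in this order was not tested.

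The mir-138 copies together reached 1254 CPM in replicate 1 and 1376 CPM in replicate 2. Mir138-1 had 2544 counts or 846 CPM (814 to 880) in replicate 1 and 3963 counts or 879 CPM (852 to 907) in replicate 2, a mean of 863 ± 23.3 CPM (SD, n = 2) at rank 98. Its values were close, with overlapping counting intervals. Mir138-2 had 1226 counts or 408 CPM (385 to 431) and 2242 counts or 497 CPM (477 to 518), a mean of 453 ± 63.3 CPM at rank 126. Replicate 2 was the higher library for Mir138-2, with intervals apart. Mir138-1 gave 67.5% of the family's counts in replicate 1 (exact binomial 95% interval 66.0% to 69.0%) and 63.9% in replicate 2 (62.7% to 65.1%). Mir138-1 thus had more counts than its sister in both libraries, by 2.08 and 1.77 times. The shares differed between the libraries by more than their counting intervals. Reads that fit both copies equally are in neither count.

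The mir-128 copies together reached 1255 CPM in replicate 1 and 1143 CPM in replicate 2. Mir128-1 had 2175 counts or 723 CPM (693 to 754) and 3045 counts or 675 CPM (652 to 700) in replicates 1 and 2, a mean of 699 ± 33.9 CPM (SD, n = 2) at rank 106. Mir128-2 had 1599 counts or 532 CPM (506 to 559) and 2108 counts or 468 CPM (448 to 488), a mean of 499.7 ± 45.4 CPM at rank 120. Both copies were higher in replicate 1, where Mir128-2 had an interval apart from that of replicate 2 and Mir128-1 one that overlapped it. Mir128-1 gave 57.6% of the family's counts in replicate 1 (56.0% to 59.2%) and 59.1% in replicate 2 (57.7% to 60.4%). Of the counted reads, the larger share came from the copy in R3hdm1 in both libraries, and the counting intervals of the shares overlapped. Reads placed at several loci, such as those that fit both copies equally, are in neither count.

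The mir-129 copies were the lowest members, together at 163 CPM in replicate 1 and 179 CPM in replicate 2. Mir129-2 had 288 counts or 95.8 CPM (85.0 to 108) and 428 counts or 94.9 CPM (86.2 to 104), a mean of 95.4 ± 0.603 CPM (SD, n = 2) at rank 206. Mir129-1 had 203 counts or 67.5 CPM (58.5 to 77.5) and 377 counts or 83.6 CPM (75.4 to 92.5), a mean of 75.6 ± 11.4 CPM at rank 219. Counting intervals of the libraries overlapped for both. Mir129-2 gave 58.7% of the family's counts in replicate 1 (54.2% to 63.0%) and 53.2% in replicate 2 (49.7% to 56.7%), so in replicate 2 an even split lay within counting error. This is the family whose copies share stretches in both arms, and reads that fit both copies equally are in neither count.

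**Figure D2:**
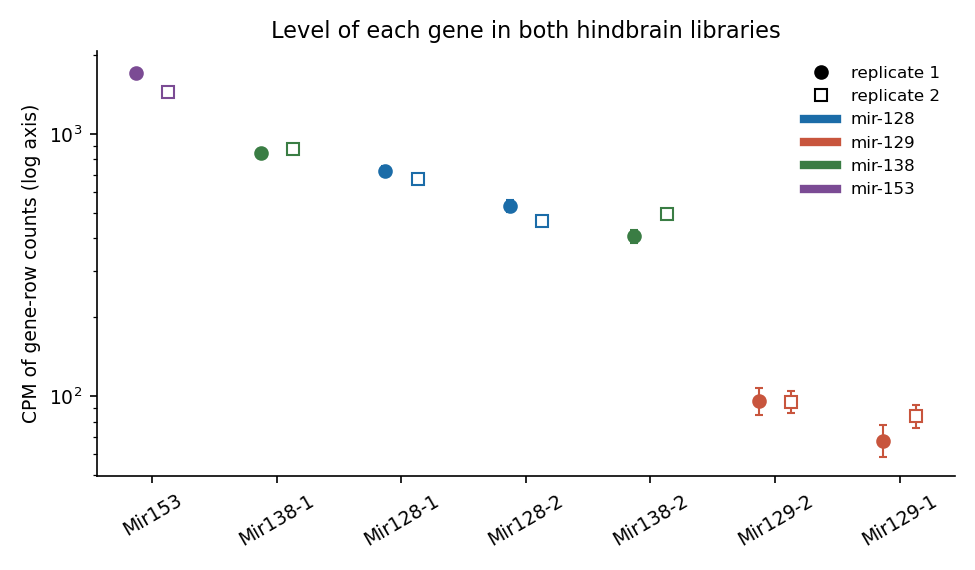
Level of each gene in CPM on a log axis, filled circles for replicate 1 and open squares for replicate 2, with exact Poisson 95% intervals as bars and colours by family. Mir153 is highest at 1707 and 1451 CPM, and the mir-129 copies lie lowest, at 67.5 to 95.8 CPM.

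**Figure D3:**
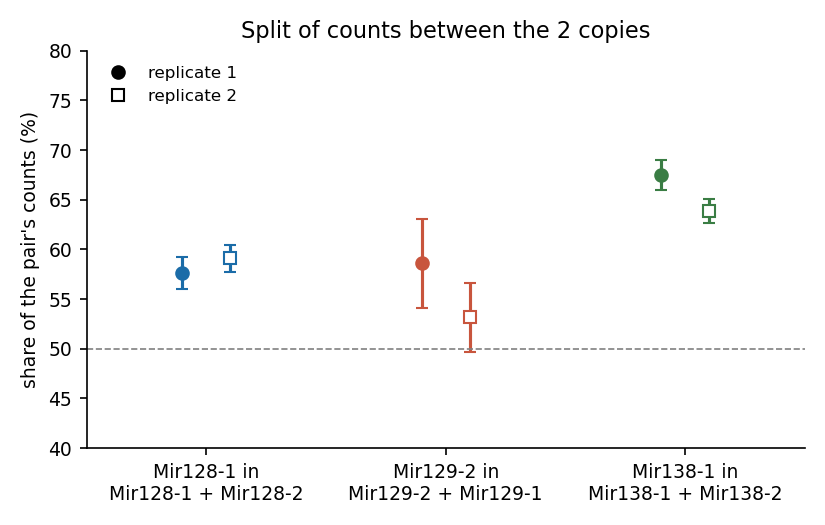
Share of a family's counts, in percent, that came from its more counted copy in replicate 1 (filled circles) and replicate 2 (open squares), with exact binomial 95% intervals and a dashed line at an even split. The vertical axis runs from 40% to 80%, and reads placed at several loci are not in these counts. Mir138-1 has the largest shares, at 67.5% and 63.9%.

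The order of the levels by CPM was Mir153, Mir138-1, Mir128-1, Mir128-2, Mir138-2, Mir129-2 and Mir129-1. The ranges of neighbours over the 2 libraries did not overlap, with 1 exception. Mir128-2 and Mir138-2 overlapped and changed places, with Mir138-2 at 0.767 times Mir128-2 in replicate 1 and 1.06 times in replicate 2. The highest member was 25.3 times the lowest in replicate 1 and 17.4 times in replicate 2. These levels are not divided by length, and whether reads stood for whole mature products was not tested. Divided by hairpin length, a scale chosen after seeing the data, Mir128-1 at 999 CPM per 100 nt came before Mir138-1 at 871 CPM per 100 nt. On that scale Mir129-1 passed Mir129-2 in replicate 2, at 115 against 105 CPM per 100 nt, while it stayed below in replicate 1, at 92.5 against 106 CPM per 100 nt. The lengths are those of GENCODE M21. Mir128-1, Mir128-2 and Mir138-2 have a newer version there, so the lengths used for their counts may differ.

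The detected genes directly above and below each member in mean CPM came from other families. Mir138-1 stood between Mir106a at 871 CPM and Mir351 at 824 CPM, and Mir128-1 between Mir341 at 699.9 CPM and the neural Mir7b at 683 CPM. Mir128-2 lay between Mir203 at 513 CPM and Mir187 at 497 CPM. Mir138-2 lay between Mir363 at 473 CPM and Mir28a at 451 CPM. Mir129-2 lay between Mir503 at 96.3 CPM and Mir673 at 95.2 CPM, and Mir129-1 between Mir192 at 77.3 CPM and Mir377 at 72.1 CPM. With 2 libraries this likeness is one of mean level only. Of the 7 members, 5 were above the median of the detected genes, 166 CPM, and the mir-129 copies were below it.

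Other neural microRNA genes were taken from a list of 21 genes, of which 20 have a row and 16 were detected. The highest was Mir137, known from neuronal differentiation, at 6207 ± 105 CPM (SD, n = 2), followed by Mir219a-2 of the oligodendrocyte lineage at 2731 ± 103 CPM. These 2 were the only genes of the list above Mir153. Mir7b at 683 ± 47.9 CPM, Mir9-3 at 573 ± 65.5 CPM and the activity-linked Mir132 at 546 ± 68.4 CPM came next, in the range of the mir-128 and mir-138 copies. The lowest were Mir124a-2 at 3.49 ± 1.65 CPM, Mir9-2 at 3.16 ± 0.236 CPM and Mir124a-3 at 1.22 ± 1.10 CPM. Each of these 3 had fewer than 10 counts in at least 1 library and was not counted as detected. The Mir124a genes give the same mature product, and Mir9-2 has the sister genes Mir9-1 and Mir9-3. Reads placed at several loci are in no gene row, and their part in these low values was not tested. In the counted reads all 7 members lay above these, and 14 of the 20 list genes lay above Mir129-1.

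**Figure D4:**
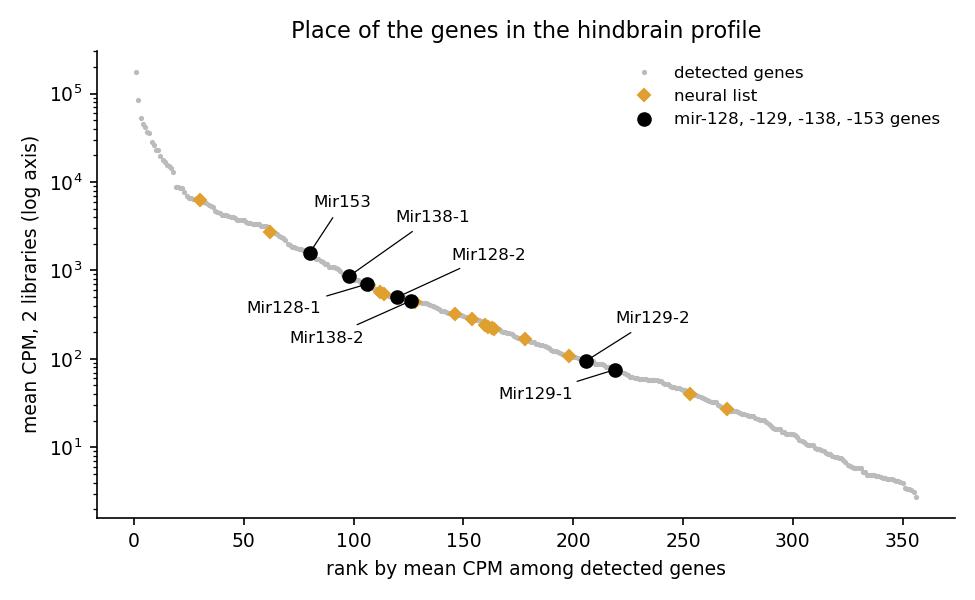
Mean CPM over 2 libraries (log axis) against rank for the 356 detected genes in grey, genes of the neural list as orange diamonds and the 7 members as black circles. The members run from rank 80 for Mir153 to rank 219 for Mir129-1, with 2 genes of the neural list above Mir153.

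Each detected gene was also compared between the libraries, using library sizes scaled by trimmed mean (TMM). The test was the exact binomial, two-sided, and p-values were adjusted by Benjamini-Hochberg across all 356 genes. This test sets library against library with counting error alone and says nothing of conditions. Of the 7 members 5 were called at an adjusted p under 0.05, 2 higher and 3 lower in replicate 2. Of all detected genes 45.2% were called, 22.5% higher and 22.8% lower, so with a background this high the members' count says little about them. Mir153 was lower in replicate 2, with a log2 ratio of replicate 2 over replicate 1 of -0.25 (counting interval -0.30 to -0.19, exact binomial adjusted p = 5.72e-19). Mir138-2 was higher, with a log2 ratio of 0.27 (0.17 to 0.37, exact binomial adjusted p = 3.92e-07), while its sister Mir138-1 had 0.04 (-0.03 to 0.11, exact binomial adjusted p = 0.376).

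Mir128-2 was lower, with a log2 ratio of -0.20 (-0.29 to -0.10, exact binomial adjusted p = 0.000131), and Mir128-1 was lower too, at -0.11 (-0.19 to -0.03, exact binomial adjusted p = 0.0150). Mir129-1 was higher at 0.30 (0.05 to 0.55, exact binomial adjusted p = 0.0438), a call lost at an adjusted p of 0.120 by the same exact test with no filter on low counts. Mir129-2 had -0.03 (-0.24 to 0.19, exact binomial adjusted p = 0.900). The largest size among the members, 0.30 for Mir129-1, exceeded that of 75.6% of the detected genes. The median absolute log2 ratio was 0.20 over the members and 0.17 over all detected genes, and the median log2 ratio -0.03 and 0.01.

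Beyond counting error, the detected genes had a common biological coefficient of variation between the libraries of 0.141 (edgeR, intercept only). When edgeR's exact test was run with the coefficient set to 0.1, 0 members were called of 7, against 3.65% of all detected genes. That test sets 1 library against 1 and ranks genes by their distance from a common spread. Of the 16 detected genes of the neural list 9 were called by the exact binomial test, 8 higher and 1 lower in replicate 2. The shares of all detected genes called by that test, 45.2% in all, 22.5% higher and 22.8% lower, are the background for this count and for the lists that follow. Hox cluster microRNAs, which mark hindbrain and trunk, had 4 of 6 genes detected, all 4 called higher in replicate 2, and summed to 111478 CPM in replicate 1 and 135699 CPM in replicate 2. Markers of other tissues were read in the same libraries. Endocrine genes had 4 of 4 detected, 3 of them called lower in replicate 2, and summed to 1797 and 1486 CPM in replicates 1 and 2. Epithelial genes had 7 of 7 detected, 4 of them called lower, and summed to 801 and 688 CPM. Blood genes had 5 of 5 rows detected, 1 called higher and 1 lower, and summed to 486 and 452 CPM. The called genes, named after their values were seen, moved in opposite directions, Mir451a with a log2 ratio of -1.42 and Mir155 with 0.37. The other blood genes with a row were not called, Mir144 at 0.03, Mir223 at 0.10 and Mir150 at 0.22. The fall of Mir451a was thus not seen across the list. Muscle genes had 3 of 7 rows detected, 1 called higher and 2 lower, and summed to 149 and 86.3 CPM. Their log2 ratios, likewise named after their values were seen, were -2.51 for Mir208b, -2.25 for Mir208a and 0.96 for Mir206. Mir133b had 1 and 5 counts in replicates 1 and 2, and Mir1a-1, Mir133a-1 and Mir133a-2 had 0 in both. A count of 0 allows up to 0.998 CPM in replicate 1 and 0.665 CPM in replicate 2. Reads placed at several loci are in no gene row, and their part in these 0 values was not tested. Called genes went in a single direction in the Hox, endocrine and epithelial lists, and both ways in the blood and muscle lists. In the neural list 8 were higher and 1 lower in replicate 2. Of the called members 2 were higher and 3 lower. The part of these tissues in the members' values was not tested.

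**Figure D5:**
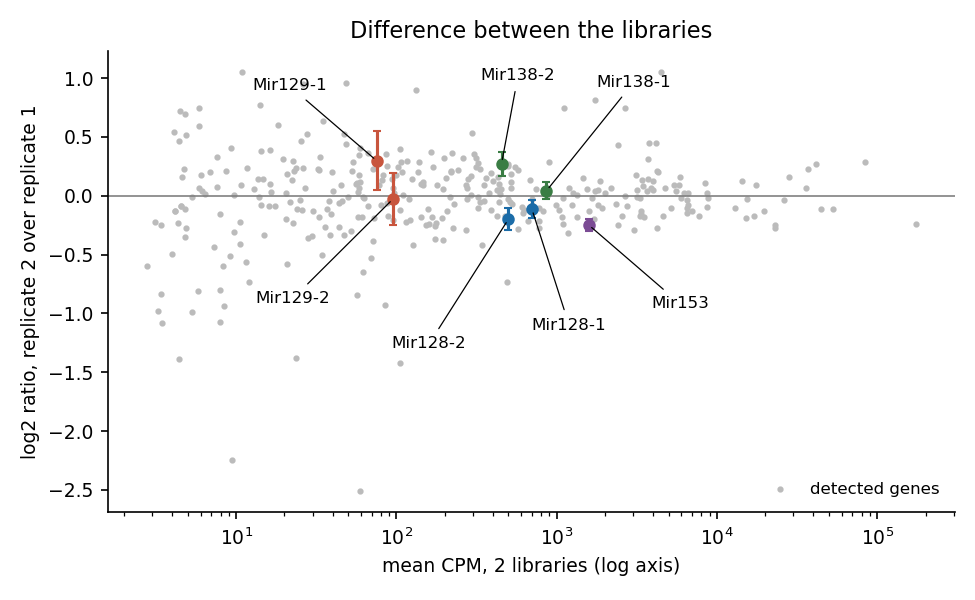
Log2 ratio of replicate 2 over replicate 1 (TMM scaling) against mean CPM (log axis) for the 356 detected genes in grey and the 7 members in colours by family, with exact binomial 95% counting intervals. The members lie between -0.25 for Mir153 and 0.30 for Mir129-1, on both sides of 0.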

How the data were processed

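Small RNA libraries of embryonic day 13.5 hindbrain, 2 biological replicates, were analysed. The deposited tables hold raw counts of reads for each microRNA gene. Reads were aligned to mm10 and counted on GENCODE M4, per the README texts deposited with them. The name of the aligner is not given in the sources used here, nor are those of the counter and trimming tools. The tables have 3 count columns each, and the strand column that held 98.1% of the gene counts in both libraries was taken as the annotated strand. The 4 summary rows stayed out of library sizes and tests. In replicates 1 and 2, multimapping reads were 33.9% and 34.5% of 6141045 and 9486700 reads. No molecular identifiers are named, so intervals cover counting error only.

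Identifiers were matched without version to GENCODE M21 (GRCm38). Sequences are from RefSeq (GRCm38.p6), and stretches of 20 nt were compared over 1005 hairpins. Library sizes came from edgeR 4.0.16 (TMM on detected genes) or DESeq2 1.42.0, exact tests and intervals from scipy 1.17.1. With 1 group, no quasi-likelihood test between groups could be run. The binomial script was tested on data simulated with counting error alone, which leaves out the further spread between these libraries. The libraries' counts differed by more than sampling noise (chi-square 38606 on 355 degrees of freedom over detected genes). That value cannot tell biological from technical differences, and the libraries were kept as 2 replicates because the labels call them so.

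The members and lists were chosen with earlier results of these data known. The named genes were all members, the detected genes directly above and below each in mean CPM, the 5 highest and 3 lowest genes of the neural list, and any gene sharing a seed with a member. Alternatives were another scaling, denominator, count column, filter, error model and each library alone.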

Additional observations from a re-analysis of the deposited data

How the results depend on the processing

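The median level of the 7 genes, taken in each library and averaged over the 2 libraries, was 514.6 CPM. This median and the members' sum, 4264 CPM, moved with the denominator, to 248 and 2058 per 1000000 of all reads of the library. Both also moved with division by GENCODE M21 hairpin length, added after seeing the data, to 700.1 and 5663 CPM per 100 nt. Under TMM, DESeq2 size factors and the either-strand column the median and the sum stayed within 1 SD of the libraries, and the sum ran from 4149 to 4379 CPM in single libraries. All 7 genes were detected at minimums of 1, 5 and 30 counts, with the either-strand column and in each library alone. Of the neural list 16 to 20 genes were detected over these minimums. The number of members called between the libraries was 5 under totals, DESeq2 size factors and the either-strand column, 4 with no filter on low counts, where 717 genes were tested, and 0 when edgeR's exact test was given a coefficient of variation of 0.1, which adds a spread between replicates. The members' log2 ratios kept their sign under all 5 alternatives. The comparison of the libraries cannot be made with 1 library left out. No paired analysis was possible because there is a single group. The depth leaves the mir-129 genes least precise, with 203 counts for Mir129-1 in replicate 1.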

Other observations

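Across the 916 gene rows with a mature product in the RefSeq table, genes were sorted by whether their mature sequences also occur in another hairpin, a grouping chosen after seeing the data. Mir128-1, Mir128-2, Mir129-2, Mir138-1 and Mir138-2 were among 50 genes with some products in common with another hairpin, of which 33 were detected, with a median of 222 CPM. Mir129-1 was among 35 genes whose listed products all occur elsewhere, of which 8 were detected, with a median of 217 CPM. Its class rests on miR-129-5p alone, because the RefSeq table lists no 3p product for it. The stretch of Mir129-1 opposite miR-129-2-3p differs from that product at 1 of 22 positions. Mir153 was among 831 genes with no product in common with another hairpin, of which 284 were detected, with a median of 158 CPM. Each median is over detected genes only, which were 66%, 22.9% and 34.2% of these classes in the order given. The medians therefore do not compare the levels of whole classes. These are descriptions of the rows in these 2 libraries, and the reads set aside as multimapping are in none of the rows.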
